A study of Homo sapiens with 36 samples.

Results

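Type I interferons are secreted proteins that bind a receptor made of IFNAR1 and IFNAR2 on the cell surface. The receptor activates Janus kinases, and these phosphorylate STAT proteins, which join IRF9 in a complex that binds the interferon-stimulated response element (ISRE) in promoters. The genes switched on in this way, the interferon-stimulated genes, encode proteins that block viral entry, translation and replication, and many cells also keep a low, constant level of them without added interferon. Described here are 44 genes of this response out of the 60675 genes of the count table. They form a list of gene names that was drawn up with earlier results of these data known, and all 44 were found in the table. They comprise 31 antiviral effectors, 4 genes of the ISG15 pathway, 3 sensor and PARP genes, 4 transcription factors and 2 receptor chains.

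The genes were followed in HT29, a human colorectal adenocarcinoma line, and in SW1783, a human astrocytoma line. Each line was treated for 24 h with vehicle, with wortmannin or with ACD, which is an extract in hot water of the monkshood *Aconitum carmichaeli* Debeaux used in herbal medicine, and mRNA was sequenced. In batch A, cells of either line received vehicle or 10 µM of wortmannin, a fungal metabolite that inhibits the lipid kinase PI3K and related kinases. In batch B they received vehicle or ACD at 1 of 3 doses, namely 500 µg/mL (high), 100 µg/mL (medium) or 20 µg/mL (low). Vehicle was 0.1% DMSO per the labels. The 36 libraries formed 12 groups of 3 replicates. The labels did not state whether replicates were separate cultures, so p-values measure the spread between these libraries, which may be technical. Both models are established cell lines without immune or stromal neighbours.

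Total counts per library ranged from 15941255 to 33866644, so that a count of 0 allows up to 3 counts, or 0.089 to 0.188 CPM (counts scaled to the library total). All 8 epithelial markers (such as EPCAM and CDH1) had at least 10 counts in every HT29 library, except CDX1 with 9 in the third wortmannin library. The summed level of the 8 was 4709 to 6101 CPM in HT29 and 69.3 to 250 CPM in SW1783. The 8 mesenchymal or astrocytic markers summed to 383 to 582 CPM in HT29 and 13869 to 20756 CPM in SW1783. In each SW1783 group, only 6 of these 8 had at least 10 counts in any library. Of 6 leukocyte markers, LYZ held nearly all of the 1180 to 2479 CPM in HT29 while CD3E and PTPRC were at or near 0. In SW1783 these markers summed to 3.41 to 14.5 CPM, mostly from PTPRC. The second high-dose library of HT29 stood apart from the other two in the group, and the share of counts in mitochondrial ribosomal RNA differed with ACD. It was 1.14 to 1.22% in HT29 vehicle and 11.3 to 12.5% at the high dose, and in SW1783 it was 0.91 to 0.96% in vehicle, 7.67 to 8.05% at the medium and 5.76 to 6.06% at the high dose. With wortmannin this share was 1.3 to 1.4% in HT29 and 1.0 to 1.03% in SW1783. Its part in the results was not tested.

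Levels before treatment differed between the cell lines for most members, as they did for most genes. Over the vehicle libraries of both batches, 6 per line, 23 members had all SW1783 libraries above all HT29 libraries, 14 had the reverse and 7 overlapped. Among all 18775 genes with at least 10 counts in a vehicle library, 40.1% were apart with SW1783 higher and 37% with HT29 higher. These levels are a description without a test, and vehicle libraries with the same replicate number in batches A and B were close to repeats of each other. IFI44L, IFITM3, SAMD9L and GBP1 were among those lower in HT29. IFI44L had a median of 1.15 CPM (range 0.88 to 1.58) in HT29 and 41.5 CPM (40.2 to 43.5) in SW1783. IFITM3, a membrane protein that restricts viral entry, had 16.9 CPM (14.4 to 21.5) in HT29 and 287 CPM (281 to 294) in SW1783. SAMD9L had 0.15 CPM (0.1 to 0.28) in HT29, close to the limit of detection, and 26.9 CPM (25.5 to 28.4) in SW1783. GBP1, a guanylate-binding protein, had 1.04 CPM (0.7 to 1.16) in HT29 and 32 CPM (31 to 35.4) in SW1783. HT29 in turn held the higher levels of OAS1, PARP14 and IRF7. OAS1, a synthetase activated by double-stranded RNA, had 29 CPM (25.2 to 32.2) in HT29 and 0.8 CPM (0.51 to 1.17) in SW1783. PARP14 had 137 CPM (119 to 150.4) in HT29 and 26 CPM (24.6 to 26.8) in SW1783. IRF7, which induces interferon genes, had 25.6 CPM (22.6 to 30.5) in HT29 and 4.81 CPM (3.94 to 5.43) in SW1783. The receptor chain IFNAR1 had 33.8 CPM (28.6 to 38) in HT29 and 127 CPM (120.1 to 132) in SW1783, and IFNAR2 had 8.84 CPM (8 to 9.47) and 30.1 CPM (26.1 to 31.1).

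With wortmannin, interferon-stimulated genes rose in HT29 cells. A gene counted as changed when its DESeq2 adjusted p was under 0.05 and its level differed by more than 1.5-fold. Of the 44 members, 34 rose and 0 fell, by 1.62 to 13.3-fold, whereas 2.74% of all 13162 genes with an adjusted p changed in either direction and 1.97% rose. The median log2 fold change over the 44 members was 1.37, compared with -0.01 over all genes tested. In 39 members every wortmannin library lay above every vehicle library and 5 overlapped, and 21.1% of all genes tested were apart in this direction. For 41 members an adjusted p was given, and DESeq2 left it out for TRIM22, SAMD9L and HERC5, which had few counts. The summed leukocyte markers moved with wortmannin as well, through LYZ, which was at 1743 to 1875 CPM in vehicle and 2411 to 2472 CPM with wortmannin. The pan-leukocyte marker PTPRC had at most 1 count in any of these 6 libraries, and the part of LYZ in the result was not tested. In bulk libraries, more RNA per cell and more cells with the RNA cannot be told apart.

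**Figure D1:**
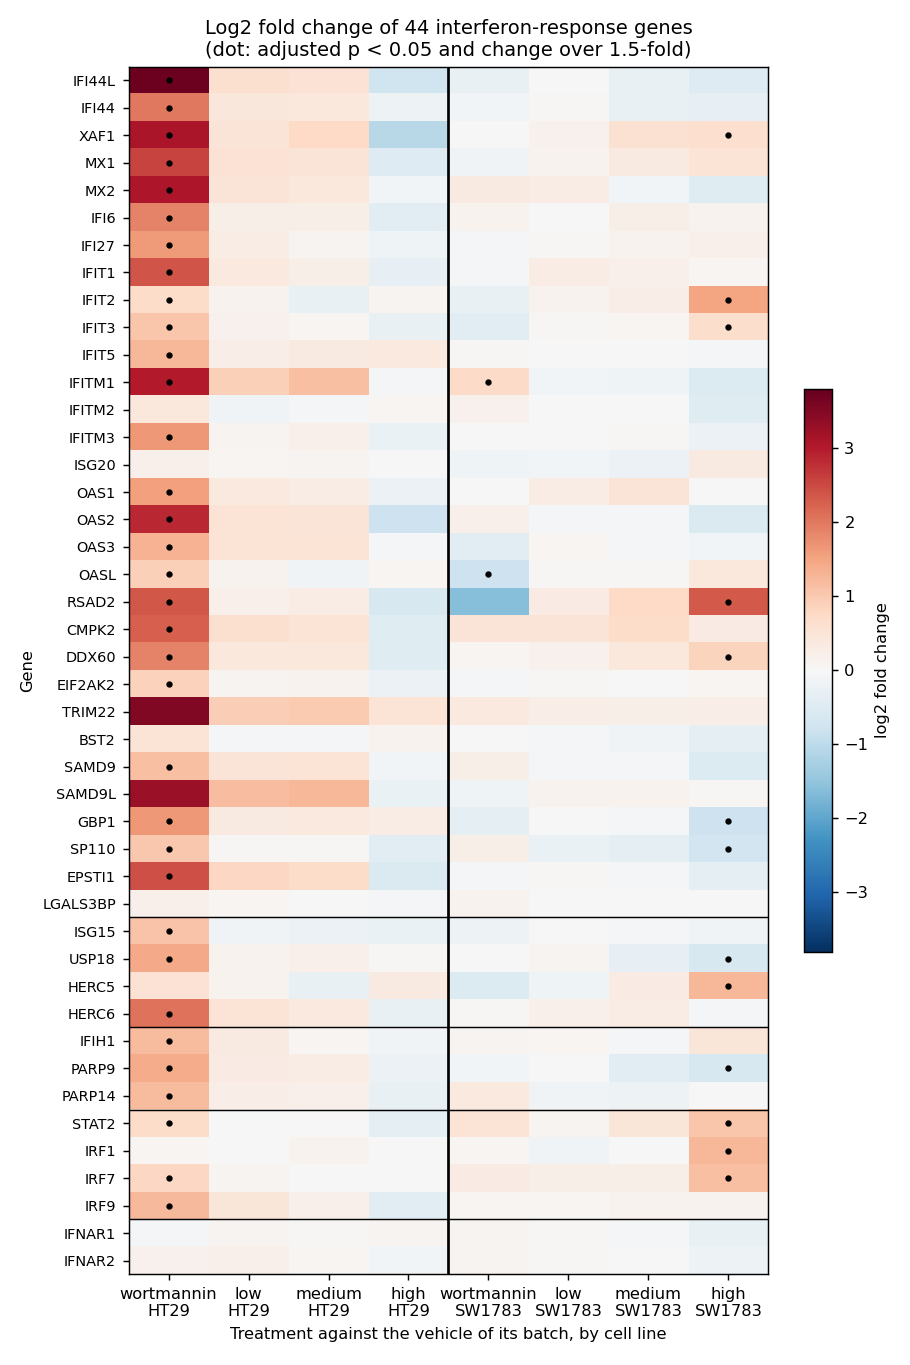
Fitted log2 fold change (colour) of each of the 44 genes (rows, in the order effectors, ISG15 pathway, sensor and PARP genes, transcription factors, receptor chains, separated by lines) in 8 comparisons with the vehicle of the same batch (columns, HT29 left and SW1783 right). Dots mark an adjusted p under 0.05 and a change over 1.5-fold: 34 in the wortmannin column of HT29, 0 at each ACD dose in HT29, 2 with wortmannin in SW1783 and 13 at the high ACD dose in SW1783.

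The ISRE was searched for in the promoters of the members, from 250 bases before to 50 bases after the RefSeq start of each gene in GRCh38.p14, which were found for 35 of the 44. The letters GAAANNGAAA, on either strand, were present in 23 of the 35 (65.7%) and in 3.65% of all 27305 promoters of this length. The gamma-activated site core TTCNNNGAA was present in 9 of the 35 (25.7%) and in 7.88% of all promoters. MX2, IFIT2, IFITM2, OAS2, OASL, TRIM22, USP18, IRF7 and IFNAR2 were without an entry. The promoters printed here belong to the 4 members with the largest increase in HT29 with wortmannin, described after them, among those that held the ISRE letters, which stand in capitals. They show where the letters lie relative to the gene start, and a match is not a measured binding site. Since the list was made of interferon-stimulated genes, a share above that of all promoters was built in. Whether a match goes with the response to wortmannin was not tested.
IFI44L, chr1:78620198-78620497, plus strand: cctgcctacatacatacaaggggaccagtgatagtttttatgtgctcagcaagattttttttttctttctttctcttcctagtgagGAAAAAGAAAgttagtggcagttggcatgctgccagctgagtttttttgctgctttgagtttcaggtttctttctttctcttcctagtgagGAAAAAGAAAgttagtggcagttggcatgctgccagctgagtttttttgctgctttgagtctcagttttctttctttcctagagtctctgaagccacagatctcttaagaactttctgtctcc
IFITM1, chr11:313790-314089, plus strand: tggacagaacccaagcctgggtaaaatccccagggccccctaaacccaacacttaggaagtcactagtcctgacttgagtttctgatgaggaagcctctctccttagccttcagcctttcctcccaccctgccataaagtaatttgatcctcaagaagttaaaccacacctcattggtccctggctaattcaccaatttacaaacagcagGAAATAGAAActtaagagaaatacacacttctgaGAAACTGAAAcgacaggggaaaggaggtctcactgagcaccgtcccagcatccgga
MX1, chr21:41420308-41420607, plus strand: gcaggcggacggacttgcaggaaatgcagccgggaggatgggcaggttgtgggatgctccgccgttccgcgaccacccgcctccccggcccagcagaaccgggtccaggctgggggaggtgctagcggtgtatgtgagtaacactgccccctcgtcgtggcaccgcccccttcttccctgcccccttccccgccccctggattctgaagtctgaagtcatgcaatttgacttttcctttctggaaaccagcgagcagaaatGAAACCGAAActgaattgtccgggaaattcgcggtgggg
EPSTI1, chr13:42992192-42992491, minus strand: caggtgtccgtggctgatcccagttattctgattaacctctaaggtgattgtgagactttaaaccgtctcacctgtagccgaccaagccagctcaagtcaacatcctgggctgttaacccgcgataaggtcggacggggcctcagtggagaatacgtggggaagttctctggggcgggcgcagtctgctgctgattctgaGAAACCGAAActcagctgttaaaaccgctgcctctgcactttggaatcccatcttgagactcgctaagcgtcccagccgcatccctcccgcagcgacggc
The 2 matches of IFI44L start 164 and 73 bases before the gene start, those of IFITM1 at 40 and 6 bases before it and that of EPSTI1 at 50 bases before it. The match of MX1 starts 11 bases after the gene start, in the transcribed part. XAF1, OAS1, RSAD2, CMPK2, SAMD9L, SP110, HERC6, PARP9, STAT2, IRF1, IRF9 and IFNAR1 had no match in this window.

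The largest increases in HT29 were in antiviral effectors. IFI44L (ENSG00000137959; chromosome 1, 78619902 to 78646145, GRCh38), a cytoplasmic antiviral protein, had 33.1, 22.8 and 25.9 normalized counts in the vehicle libraries and 362, 309.9 and 395 in the wortmannin libraries. Its paralog IFI44 had 159.6, 122 and 133 in vehicle and 540, 548 and 554 with wortmannin. The log2 fold changes were 3.74 ± 0.22 (SE) and 2.00 ± 0.13, with DESeq2 adjusted p = 5.9e-63 and 6.34e-51. In both genes the groups lay well apart. XAF1 (ENSG00000132530; chromosome 17, 6755447 to 6775647), which counteracts the apoptosis inhibitor XIAP, had 36.8, 20.7 and 16.9 in vehicle and 191, 205 and 228 with wortmannin, a change of 3.11 ± 0.25 (DESeq2 adjusted p = 4.95e-32). EPSTI1 (ENSG00000133106; chromosome 13, 42886388 to 42992271), an interferon-induced stromal interaction protein, had 19.6, 14.3 and 19.9 in vehicle and 108, 91.2 and 91.4 with wortmannin and changed by 2.46 ± 0.30 (DESeq2 adjusted p = 4.37e-14).

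The MX proteins are dynamin-like GTPases that trap viral nucleocapsids. MX1 (ENSG00000157601; chromosome 21, 41420020 to 41470071) had 221, 156 and 205 normalized counts in vehicle and 1128, 1029 and 1247 with wortmannin. MX2, its neighbour on the chromosome (41361999 to 41409393), had 25.8, 25.7 and 40.8 in vehicle and 266, 229 and 285 with wortmannin. The log2 fold changes of 2.56 ± 0.13 and 3.08 ± 0.22 had DESeq2 adjusted p = 1.98e-81 and 6.38e-40. OAS2, which makes the oligoadenylates that activate RNase L, had 120.3, 99.9 and 136 in vehicle and 871, 779 and 902 with wortmannin, a change of 2.85 ± 0.13 (DESeq2 adjusted p = 5.55e-98). Its family members rose as well, OAS1 by 1.56 ± 0.09, OAS3 by 1.32 ± 0.08 and OASL by 0.90 ± 0.17. RSAD2, also called viperin, makes a chain-terminating nucleotide, and CMPK2 next to it on chromosome 2 is a mitochondrial nucleotide kinase. RSAD2 had 12.3, 7.8 and 14.9 in vehicle and 60.8, 45.2 and 71.2 with wortmannin (2.36 ± 0.40, DESeq2 adjusted p = 1.5e-07). CMPK2 had 63.8, 49.9 and 43.8 in vehicle and 255, 217 and 278 with wortmannin (2.26 ± 0.20, DESeq2 adjusted p = 3.28e-27).

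The IFIT proteins bind viral RNA that lacks the host cap, and the IFITM proteins sit in membranes and restrict entry. IFIT1 (ENSG00000185745; chromosome 10, 89392546 to 89406487) had 184, 137 and 168 normalized counts in vehicle and 867, 696 and 986 with wortmannin, a change of 2.39 ± 0.15 (DESeq2 adjusted p = 2.92e-52). The other family members changed by 1.27 ± 0.14 (IFIT5), 1.04 ± 0.12 (IFIT3) and 0.70 ± 0.19 (IFIT2), of which IFIT2 missed the threshold without the first or the second wortmannin library (DESeq2 adjusted p = 0.0564 and 0.0602). IFITM1 (ENSG00000185885; chromosome 11, 310041 to 315272) had 20.9, 7.8 and 21.9 in vehicle and 137, 119.5 and 132 with wortmannin. It changed by 3.00 ± 0.32 with DESeq2 adjusted p = 1.16e-18. IFITM3 had 432, 308 and 338 in vehicle and 1130.1, 1092 and 1147 with wortmannin (1.65 ± 0.12, DESeq2 adjusted p = 5.92e-43), while IFITM2 differed by 0.39 ± 0.10 and did not pass the fold threshold. The 3 IFITM genes resemble each other, as do the IFIT genes, and IFITM1 and IFITM2 also overlap an annotated transcript on their strand. The division of reads within these families is therefore uncertain.

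DDX60, a helicase that promotes sensing of viral RNA, had 146, 142 and 165 normalized counts in vehicle and 536, 526 and 609 with wortmannin, and changed by 1.88 ± 0.13 (DESeq2 adjusted p = 6.11e-46). IFI6, a small protein of the endoplasmic reticulum and mitochondria that overlaps another annotated gene, had 651, 303 and 309.6 in vehicle and 1404, 1387 and 1836 with wortmannin. The first vehicle library was higher than the other two but below all wortmannin libraries, and the change was 1.88 ± 0.39 (DESeq2 adjusted p = 3.9e-05). GBP1, which also responds to interferon gamma, had 23.3, 15 and 24.9 in vehicle and 63, 61.1 and 70 with wortmannin (1.65 ± 0.32, DESeq2 adjusted p = 1.25e-05). The remaining effectors that rose were IFI27 (1.63 ± 0.13), SAMD9 (1.14 ± 0.09), SP110 (1.03 ± 0.12) and EIF2AK2, the kinase PKR that halts translation (0.87 ± 0.07). TRIM22 and SAMD9L were nearly off in vehicle and showed the same direction without an adjusted p. TRIM22 had 2.5, 3.6 and 5 in vehicle and 48, 35.4 and 45.1 with wortmannin, and SAMD9L had 3.7, 2.1 and 6 in vehicle and 40.6, 31 and 40.4 with wortmannin. The effectors that did not pass were BST2 (tetherin, 0.52 ± 0.12), ISG20 (0.20 ± 0.23), LGALS3BP (0.19 ± 0.05) and IFITM2. In all, 25 of the 31 effectors rose.

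**Figure D2:**
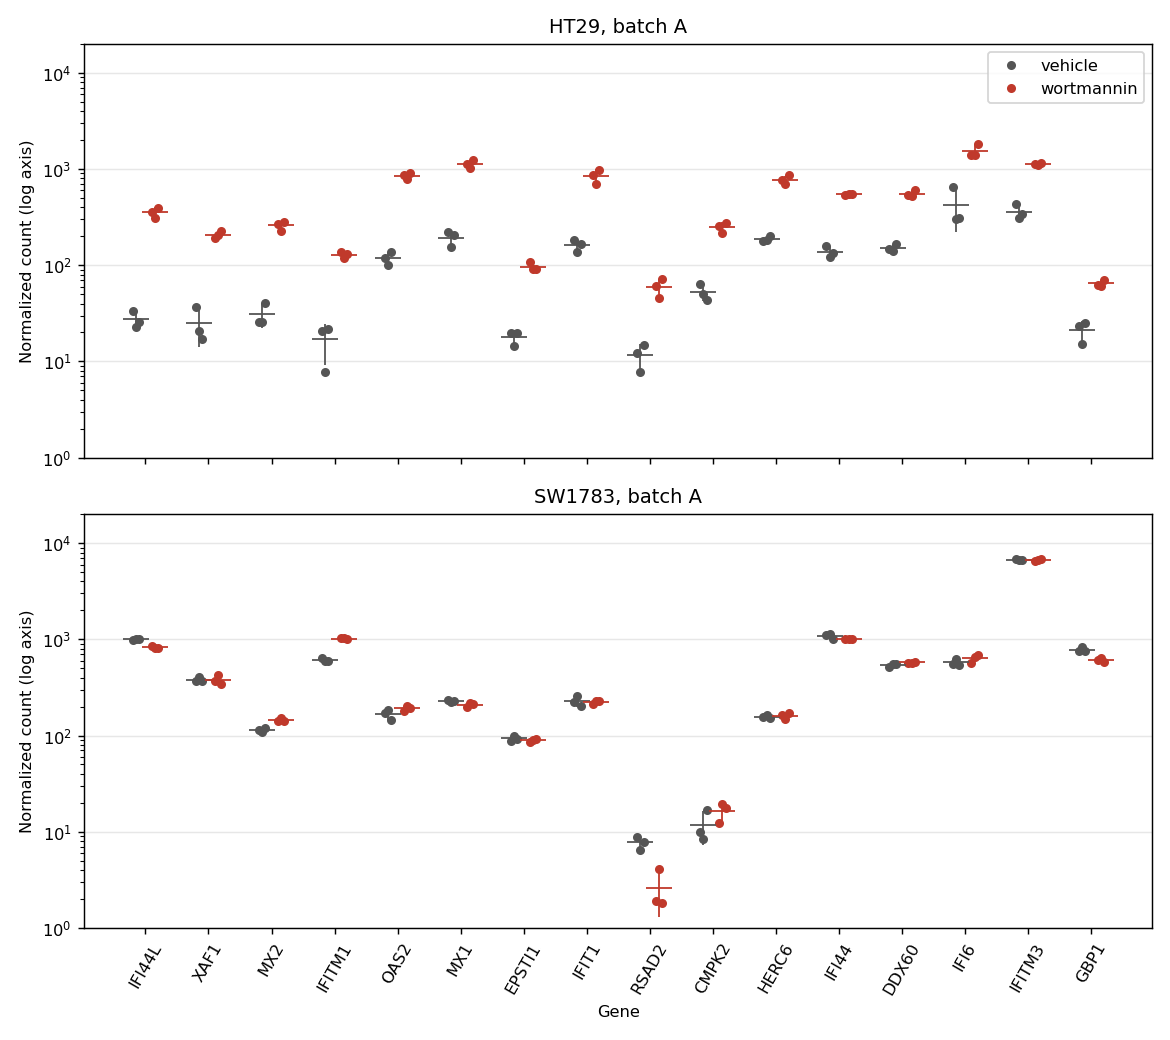
Normalized counts (log axis) of the 16 members with the largest changes in HT29 and a mean of at least 20 normalized counts, in each vehicle (grey) and wortmannin (red) library of batch A of HT29 (top) and SW1783 (bottom), with horizontal marks at the mean and vertical bars of 1 SD (n = 3). In HT29 all wortmannin libraries lie above the vehicle libraries, whereas in SW1783 IFITM1 alone among the 16 passed the thresholds.

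ISG15 is a ubiquitin-like protein that is attached to other proteins, HERC5 and HERC6 are ligases of the HERC family and USP18 removes ISG15 and dampens receptor signalling. ISG15 had 838, 582 and 524 normalized counts in HT29 vehicle and 1400.1, 1252 and 1463 with wortmannin (1.09 ± 0.14, DESeq2 adjusted p = 4.89e-12). HERC6 had 177, 182 and 201 in vehicle and 775, 699.6 and 858 with wortmannin (2.06 ± 0.12, DESeq2 adjusted p = 9.43e-62). USP18 changed by 1.45 ± 0.17. HERC5, with 12.3, 16.4 and 11 in vehicle and 16, 17.7 and 24.9 with wortmannin, overlapped between the groups. All 3 sensor and PARP genes rose: IFIH1, the double-stranded RNA sensor MDA5, by 1.21 ± 0.13, PARP9 by 1.41 ± 0.08 and PARP14 by 1.20 ± 0.07.

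Of the transcription factors, IRF9, STAT2 and IRF7 rose in HT29 and IRF1 did not pass. IRF9, the DNA-binding subunit of the ISRE complex, had 374, 271 and 337 normalized counts in vehicle and 819, 758 and 707 with wortmannin (1.23 ± 0.13, DESeq2 adjusted p = 3.34e-20). STAT2, its partner, had 473, 442 and 459.9 in vehicle and 733, 728 and 758 with wortmannin (0.69 ± 0.09, DESeq2 adjusted p = 9.66e-13). IRF7 had 659, 553 and 488 in vehicle and 1014, 965 and 974 with wortmannin (0.80 ± 0.11, DESeq2 adjusted p = 1.41e-11). IRF1, which also acts downstream of interferon gamma, differed by 0.09 ± 0.09 with DESeq2 adjusted p = 0.527. The receptor chains differed by -0.03 ± 0.10 (IFNAR1) and 0.15 ± 0.14 (IFNAR2), with DESeq2 adjusted p = 0.867 and 0.514.

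Genes of the same pathway outside the 44 showed more increases than decreases in HT29 with wortmannin. Among all genes tested, 1.97% rose and 2.74% changed in either direction. Of 34 further interferon-stimulated genes, 15 rose and 0 fell, led by TRANK1 (1.65 ± 0.23), DDX60L (1.53 ± 0.14), HSH2D (1.32 ± 0.19) and HELZ2 (1.23 ± 0.09). Of 15 genes of nucleic acid sensing, 3 rose, namely the cytosolic RNA sensor RIGI (1.55 ± 0.12), DHX58 (1.46 ± 0.17) and TLR3 (0.74 ± 0.19). Among other receptor chains and JAK-STAT genes, the kinase JAK2 rose (0.62 ± 0.21). In a list of 7 regulators of the response, the 2 that rose were UBE2L6 (2.81 ± 0.29) and UBA7 (1.83 ± 0.26), which conjugate ISG15 rather than restrain signalling. Of 14 genes that lean to interferon gamma, GBP4 (1.81 ± 0.36) and GBP2 (0.76 ± 0.13) rose. Of the ligands, IFNE, a type I interferon, was clearly above 0 in its counts and most others were not. IFNE overlaps the annotated gene MIR31HG on its strand, so the source of its reads is uncertain. Of 22 interferon genes, 12 had 0 counts in every HT29 library, 9 had at most 9 and IFNE had up to 161. In SW1783, 9 had 0 counts in every library, 11 had at most 9, IFNA1 had up to 19 and IFNE up to 287. IFNE was at 4.43, 5.07 and 5.82 CPM in HT29 vehicle of batch A and at 7.07, 6.82 and 6.40 CPM with wortmannin, and in SW1783 at 7.64, 7.68 and 8.46 CPM and at 11.7, 11.8 and 10.5 CPM. The groups were apart in both lines, and IFNE, the interferon gene with an adjusted p in each, did not pass both thresholds in either. In SW1783 its adjusted p was under 0.05, as in 32.5% of all genes tested, and it missed the fold threshold. In HT29 its adjusted p was not under 0.05.

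In SW1783, wortmannin did not raise the response as a whole. Of the 44 members 1 rose and 1 fell, where 2.7% of all 14530 genes tested changed in either direction. The median log2 fold change of the members was -0.003, and over all genes tested it was -0.002. IFITM1 rose, from 639, 597 and 597 normalized counts in vehicle to 1025, 1026 and 1009.8 with wortmannin (0.74 ± 0.07, DESeq2 adjusted p = 1.88e-24). OASL, an OAS-like protein that enhances RIG-I signalling, fell from 256, 304 and 269 in vehicle to 161, 138 and 179 with wortmannin (-0.79 ± 0.14, DESeq2 adjusted p = 2.52e-07). Without the fold threshold, 12 members had an adjusted p under 0.05, 7 higher and 5 lower, and so had 32.5% of all genes tested. The largest of these smaller differences was that of STAT2, with 854, 830.4 and 878 in vehicle and 1181, 1246 and 1218 with wortmannin (0.51 ± 0.06). IFI44L, the leading gene of HT29, had 994, 1019 and 998 in vehicle and 859.9, 814 and 814 with wortmannin in SW1783, a difference of -0.28 ± 0.07. RSAD2 was near the limit of detection, with 8.9, 6.5 and 7.9 in vehicle and 1.9, 4.1 and 1.8 with wortmannin and no adjusted p. The groups were apart in 13 members with wortmannin higher and in 11 with it lower, and among all genes tested in 25% and 29.2%.

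The difference between the lines was tested as an interaction on the 12 libraries of batch A. For 33 members the change was more positive in HT29 than in SW1783, and for 0 it was more negative, where 3.36% of 13645 genes passed in either direction and 2.47% with HT29 more positive. The median difference over the 44 members was 1.58 on the log2 scale, compared with 0.02 over all genes tested. The largest were IFI44L (4.04 ± 0.20, DESeq2 adjusted p = 1.78e-90), SAMD9L (3.50 ± 0.46, DESeq2 adjusted p = 2.69e-12), TRIM22 (3.15 ± 0.50, DESeq2 adjusted p = 1.54e-08) and XAF1 (3.15 ± 0.24, DESeq2 adjusted p = 5.75e-36). Of the transcription factors IRF9 alone passed, by 1.16 ± 0.17, and STAT2 differed by 0.21 ± 0.09 and IRF1 by 0.03 ± 0.10. IFI44L with wortmannin reached 14.8 to 18.9 CPM in HT29, below the 40.2 to 43.5 CPM of SW1783 vehicle.

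**Figure D3:**
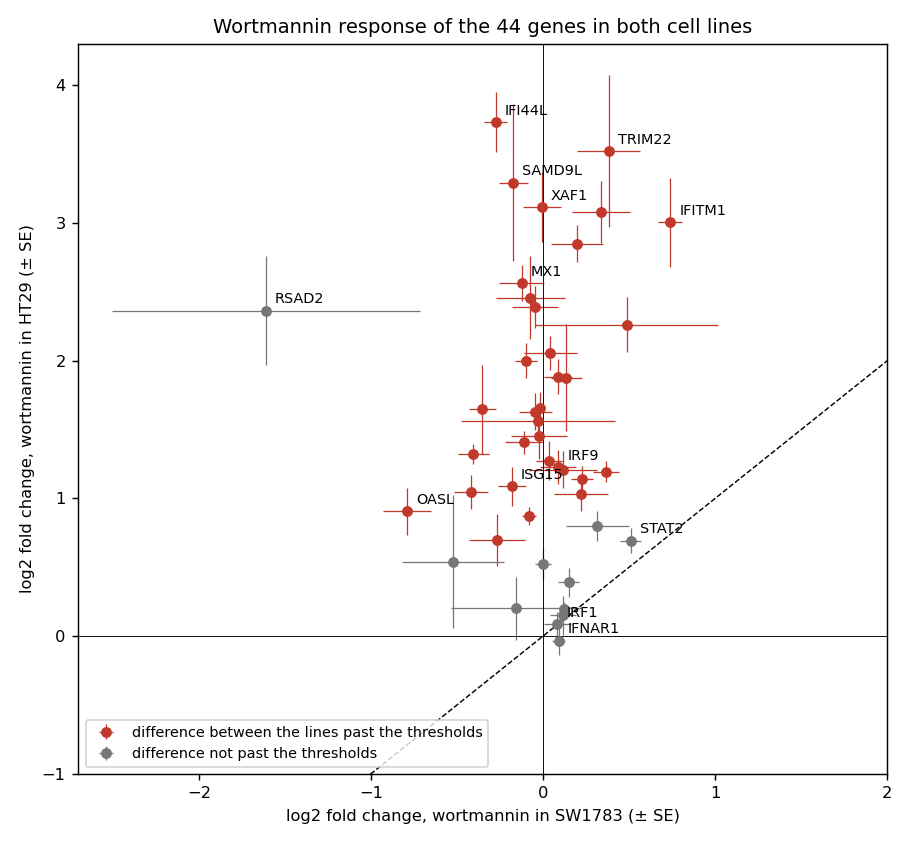
Log2 fold change with wortmannin in HT29 (vertical axis) against SW1783 (horizontal axis) for each of the 44 genes, with bars of 1 SE, the dashed line where both are equal, and the 33 genes whose difference passed both thresholds in red. Most genes lie near 0 on the horizontal axis and between 0 and 3.74 on the vertical axis.

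ACD did not raise or lower the members past the thresholds in HT29 at any dose. At the high dose 0 of 44 members passed, while 2.91% of 16470 genes did, at the medium dose 0 of 44 against 0.849% of 15894 genes, and at the low dose 0 of 44 against 0.315%. At an unadjusted p under 0.05, DESeq2 gave 7 members at the high dose (1 higher, 6 lower), 7 at the medium dose and 11 at the low dose (all higher), and edgeR called 0 at each dose. Of all genes tested, 18.5% were under this p at the high, 11% at the medium and 7.32% at the low dose. The median log2 fold changes were 0.26 for low, 0.21 for medium and -0.20 for high ACD, compared with 0.001, -0.004 and 0.007 over all genes. They moved with single libraries, to 0.155 without the second low-dose library, to 0.055 without the third or 0.343 without the first medium-dose library, and to -0.118 without the first vehicle library for the high dose. At the low dose 13 members, at the medium dose 5 members lay apart above the vehicle, and 11.2% and 14.9% of all genes did. At the high dose 11 members lay apart below the vehicle, and 11% of all genes did. The 3 comparisons share the vehicle libraries. SAMD9, an effector against poxviruses, had an adjusted p under 0.05 at the medium dose but missed the fold threshold, with 1158, 1291 and 1486 normalized counts in vehicle and 1707, 1847 and 2110.4 at that dose (0.53 ± 0.15, DESeq2 adjusted p = 0.0287). It was the 1 member under 0.05 at this dose, as were 2.18% of all genes tested. Without the second high-dose library, which stood apart, the count at the high dose was also 0.

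Since the medium and high doses differed in sign, they were also compared directly, a comparison chosen after these values were seen. In HT29, 6 members were lower at the high than at the medium dose and 0 were higher, where 0.699% of 14742 genes passed in either direction and 0.312% as lower. DDX60 had 140.3, 146 and 165 normalized counts in vehicle, 143, 205 and 239.8 at the medium dose and 104, 111 and 111 at the high dose, a difference of -0.86 ± 0.19 (DESeq2 adjusted p = 0.00054). XAF1 had 22.5, 16.8 and 23.4 in vehicle, 23.4, 22.1 and 59.7 with medium ACD and 9.8, 10.3 and 9.7 with high ACD (-1.82 ± 0.49, DESeq2 adjusted p = 0.0184). MX1 had 248, 201 and 218 in vehicle, 206, 265 and 458 with medium ACD and 149.5, 195 and 136 with high ACD (-0.96 ± 0.28, DESeq2 adjusted p = 0.0438). In XAF1 and MX1 the third medium-dose library was far above the other two. SAMD9 (-0.64 ± 0.15), HERC6 (-0.65 ± 0.19) and IRF9 (-0.62 ± 0.16) were the others. The doses were apart, with the high dose lower, in 21 members and in 8.22% of all genes. These calls depended on single libraries and on the test. Without the third medium-dose library 1 member passed, without the second 3, without the first 11 and without the third high-dose library 3. With edgeR 1 passed, which was DDX60. In a fit of the 6 libraries compared, DDX60 missed the threshold (DESeq2 adjusted p = 0.0516). Of the 6 calls, 0 held under every alternative.

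In SW1783, some members rose and some fell at the high dose of ACD, as did genes as a whole. RSAD2, IFIT2, HERC5, IRF1, IRF7, STAT2, DDX60, IFIT3 and XAF1 rose, and GBP1, SP110, USP18 and PARP9 fell. These 9 and 4 of 44 members compare with 8.63% of 19494 genes that rose, 9.55% that fell and 18.2% in either direction. The median log2 fold change over the 44 members was 0.01, and over all genes it was -0.01. The groups were apart in 13 members with the high dose above vehicle and in 15 below, and among all genes in 30.5% and 29.8%. Cell type markers were lower in sum at this dose too, though not each of them. The 8 mesenchymal or astrocytic markers summed to 18919 to 19196 CPM in vehicle and 13869 to 14098 CPM at the high dose. COL1A1 (3357 to 3546 against 736 to 790.4 CPM) and COL1A2 (2105 to 2196 against 514 to 566 CPM) were called lower. Of the 8, 0 were called higher, but VIM went the other way in CPM (4167 to 4556 against 4888 to 4975 CPM). The 8 epithelial markers summed to 222 to 231 and 69.3 to 75.2 CPM, with KRT18 called lower, and the 6 leukocyte markers to 12.9 to 14.5 and 3.41 to 5.01 CPM, with PTPRC called lower. Their part in these changes was not tested.

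Of the 4 transcription factors, 3 rose in SW1783 at the high dose. IRF1 (ENSG00000125347; chromosome 5, 132440440 to 132508719) had 514, 558 and 532 normalized counts in vehicle, 539, 522 and 550.3 at the medium dose and 1239, 1297 and 1274 at the high dose, a change of 1.25 ± 0.07 (DESeq2 adjusted p = 8.48e-75). The medium dose overlapped the vehicle in this gene. STAT2 (ENSG00000170581; chromosome 12, 56341597 to 56360203), which overlaps a small RNA pseudogene on its strand, had 695, 767 and 651 in vehicle, 759.9, 762 and 769 with low, 981, 931 and 979 with medium and 1425, 1494 and 1452 with high ACD. Its change was 0.45 ± 0.07 with medium and 1.05 ± 0.06 with high ACD (DESeq2 adjusted p = 1.45e-10 and 7.89e-60), of which the second passed the fold threshold. IRF7 (ENSG00000185507; chromosome 11, 612553 to 615983) had 79.9, 109.5 and 97.8 in vehicle and 199, 211 and 225 at the high dose (1.14 ± 0.16, DESeq2 adjusted p = 7.19e-12). IRF9, with 349, 358 and 329.9 in vehicle and 345, 380.2 and 421 with high ACD, overlapped (0.15 ± 0.10, DESeq2 adjusted p = 0.268).

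**Figure D4:**
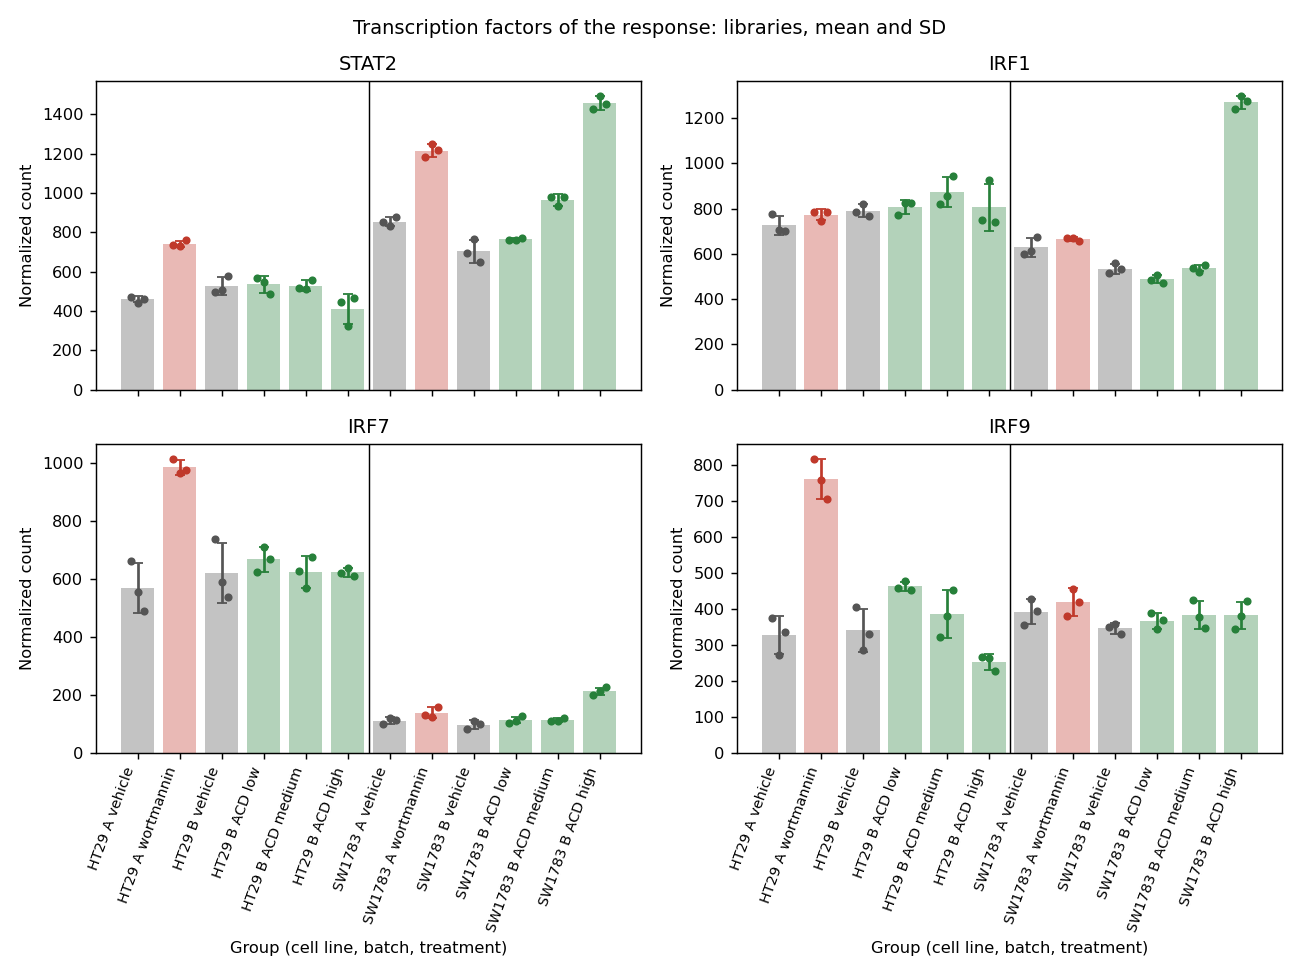
Normalized counts of the 4 transcription factors in each library (points) of the 12 groups, with the mean (bar) and 1 SD (error bar, n = 3), HT29 left and SW1783 right of the line. Counts were normalized within a line and batch, so heights compare only within these. In batch B of SW1783, IRF1 is highest at the high ACD dose (1239 to 1297). In batch A of HT29, IRF9 is higher with wortmannin (707 to 819) than in vehicle. STAT2 rises in both of these treated groups.

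Among the 31 effectors, RSAD2, IFIT2, DDX60, IFIT3 and XAF1 rose in SW1783. RSAD2 (ENSG00000134321; chromosome 2, 6865557 to 6898239) had 3.1, 7 and 10.4 normalized counts in vehicle, 16.2, 7.5 and 11.3 with medium and 30.1, 36.9 and 35.5 with high ACD. The change at the high dose was 2.33 ± 0.50 (DESeq2 adjusted p = 1.5e-05), on few counts. IFIT2 (ENSG00000119922; chromosome 10, 89283694 to 89309271), which promotes apoptosis and overlaps another annotated gene, had 149, 159 and 131 in vehicle, 174, 172 and 181 with medium ACD and 357, 441 and 445 with high ACD (1.50 ± 0.13, DESeq2 adjusted p = 3e-30). Its neighbour IFIT3 changed by 0.67 ± 0.09, whereas IFIT1 and IFIT5 differed by 0.08 ± 0.13 and -0.07 ± 0.09 and did not pass. DDX60 had 413, 454 and 470.4 in vehicle, 502, 502 and 496 with low, 628, 552 and 587 with medium and 715, 837 and 847 with high ACD, so that each dose lay apart above the vehicle. Its changes were 0.17 ± 0.09, 0.40 ± 0.09 and 0.85 ± 0.09, with DESeq2 adjusted p = 0.383, 4.35e-05 and 3.33e-22. XAF1 was at 315, 301 and 278 in vehicle and 418, 469 and 487 at the high dose (0.62 ± 0.10), and did not pass the fold threshold without the third high-dose or the third vehicle library (0.58 each), nor against the vehicle of batch A (0.50). HERC5, the ligase that attaches ISG15, had 42, 35 and 42.7 in vehicle and 81, 104 and 102 with high ACD (1.27 ± 0.25, DESeq2 adjusted p = 1.56e-06), whereas ISG15 itself differed by -0.14 ± 0.09 and did not pass.

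The members that fell at the high dose in SW1783 were led by GBP1 (ENSG00000117228; chromosome 1, 89051882 to 89065360), with 667, 626 and 648 normalized counts in vehicle, 636, 611 and 645 with medium and 345, 397 and 369 with high ACD (-0.80 ± 0.08, DESeq2 adjusted p = 5.47e-22). SP110, a nuclear body protein, had 130.1, 141 and 154 in vehicle and 83.3, 79.3 and 96.3 at the high dose (-0.71 ± 0.17, DESeq2 adjusted p = 0.000132). USP18, the negative regulator, had 100.4, 101 and 111 in vehicle and 57.9, 85.6 and 59.9 with high ACD (-0.61 ± 0.20, DESeq2 adjusted p = 0.00539). SP110 did not pass against the vehicle of batch A (-0.50). GBP1, SP110, USP18 and PARP9 had every high-dose library below every vehicle library. PARP9 had 242, 255 and 235 in vehicle and 153, 164 and 167 with high ACD and fell just past the fold threshold (-0.59 ± 0.13). PARP9 missed it without the first high-dose library or the second vehicle library (-0.56 each), and USP18 without the first or the third high-dose library (-0.51 and -0.52) or the third vehicle library (-0.56). A further 12 members had an adjusted p under 0.05 with smaller changes, 3 higher and 9 lower. In all 25 of the 44 were under 0.05 without the fold threshold, and 46.4% of all genes tested were. Among the lower ones were SAMD9 (-0.53 ± 0.07), IFITM1 (-0.52 ± 0.09) and IFI44L (-0.50 ± 0.07), which had led the response of HT29 to wortmannin or shared in it. The receptor chain IFNAR1 was lower as well (-0.28 ± 0.04).

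At the medium dose 0 members passed in SW1783 while 3.82% of 14111 genes did, and at the low dose 0 passed while 0.118% of 9324 genes did. At the medium dose 11 members had an unadjusted DESeq2 p under 0.05, compared with 38.4% of all genes tested. At the low dose 1 had, compared with 14.1%, and edgeR called 0 at both doses. At the low dose 26 members had an adjusted p. At the medium dose 7 of the 42 members with an adjusted p were under 0.05, 3 higher (STAT2, DDX60 and XAF1) and 4 lower, and 29.5% of all genes tested were. High and medium dose were compared directly in SW1783 too, again as a comparison chosen after the values were seen. Of the members 7 were higher at the high dose and GBP1 was lower, where 4.58% of 16501 genes were higher, 5.6% lower and 10.2% passed in all. IRF1 differed most clearly (1.24 ± 0.07, DESeq2 adjusted p = 2.29e-73), followed by RSAD2, IFIT2, HERC5, IRF7, IFIT3 and STAT2 with 1.57 to 0.60. IFIT3 fell below the fold threshold without the third high-dose (0.57) or the second medium-dose library (0.51), and STAT2 without the second high-dose (0.58) or the second medium-dose library (0.57). XAF1 overlapped between the doses (0.04 ± 0.09).

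**Figure D5:**
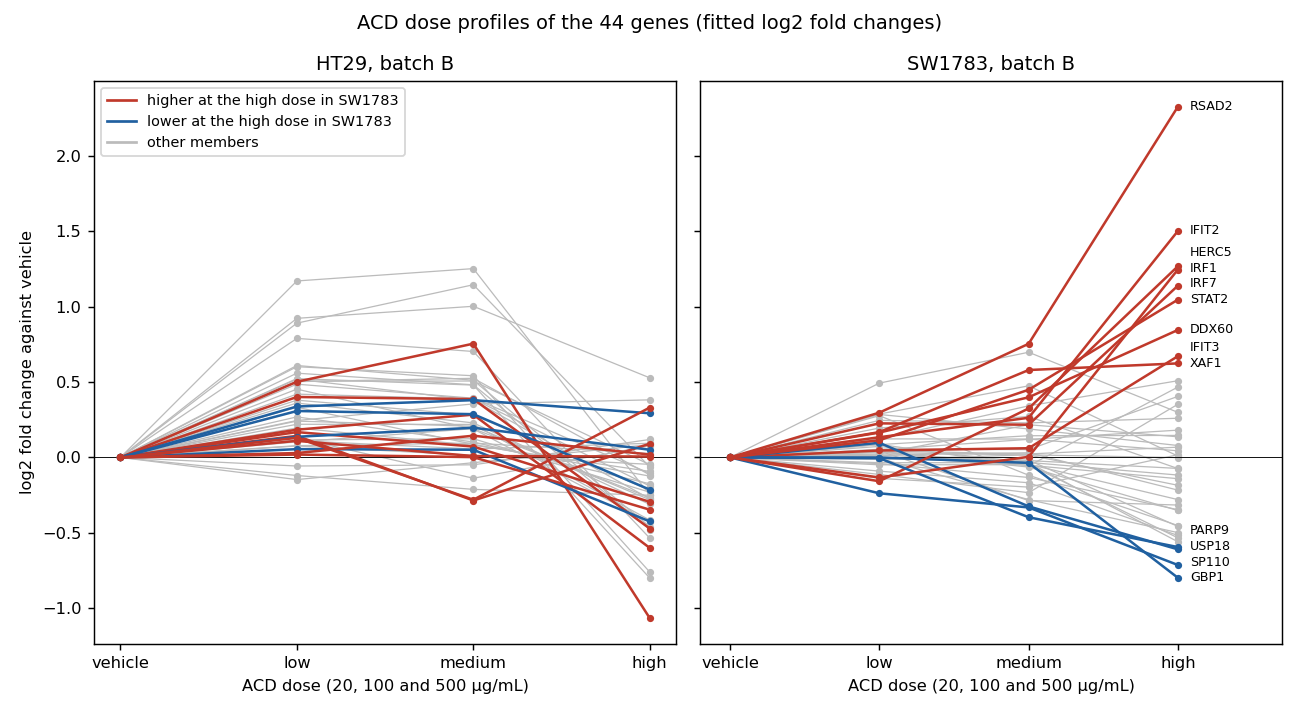
Fitted log2 fold change against the vehicle of batch B (vertical axis) at the low, medium and high ACD dose (horizontal axis, 20, 100 and 500 µg/mL, evenly spaced) for each of the 44 genes in HT29 (left) and SW1783 (right). Genes that passed both thresholds at the high dose in SW1783 are red (9, higher) or blue (4, lower) in both panels, and the other members, of which 0 passed at any dose, are grey.

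Of the pathway genes outside the 44, some rose and some fell at the high dose in SW1783, where 8.63% of all genes tested rose and 9.55% fell. Of 15 nucleic acid sensing genes 4 rose and 3 fell, with IRF5 (1.86 ± 0.36), DHX58 (1.07 ± 0.16) and TRIM25 (1.05 ± 0.04) higher and the kinase IKBKE (-1.38 ± 0.16) lower. Of 34 further interferon-stimulated genes 4 rose and 3 fell, with LAMP3 (4.64 ± 0.55) and APOL6 (0.89 ± 0.05) higher and TNFSF10 (-2.19 ± 0.51) and TRIM34 (-0.83 ± 0.21) lower. Of 14 genes that lean to interferon gamma 3 rose and 2 fell, with ICAM1 (1.68 ± 0.05), GBP5 (1.15 ± 0.27) and WARS1 (1.11 ± 0.03) higher and CIITA (-1.18 ± 0.14) lower. Of 7 regulators SOCS3 fell (-0.75 ± 0.10), and of 9 receptor chains and JAK-STAT genes JAK2 rose (0.69 ± 0.07). In HT29 at the high dose, ICAM1 (1.25 ± 0.14), WARS1 (0.71 ± 0.06) and IFNGR1 (0.73 ± 0.18) rose and TNFSF10 (-0.78 ± 0.16) fell, and no other gene of the pathway lists passed. The high-dose libraries spread widely in IFNGR1, with a mean of 2417 and an SD of 848 normalized counts, against 1452 and 32.8 in vehicle. Whether this call depends on a single library was not tested.

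The response to the high dose differed between the lines for 11 members in the interaction test on 24 libraries. For 2 the change was more positive in HT29 and for 9 more negative, where 15.1% of 17743 genes passed, 8.05% with HT29 more positive and 7.09% more negative. RSAD2 (-2.89 ± 0.72, DESeq2 adjusted p = 0.000399), XAF1 (-1.63 ± 0.40, DESeq2 adjusted p = 0.00036), IFIT2 (-1.37 ± 0.22, DESeq2 adjusted p = 1.16e-08) and STAT2 (-1.34 ± 0.13, DESeq2 adjusted p = 4.36e-22) were the most different. DDX60, IRF1, IRF7, MX1 and IFIT3 followed with -1.27 to -0.92. GBP1 (1.12 ± 0.26) and IFITM2 (0.59 ± 0.11), of which the second was at the fold threshold, were the 2 with the opposite sign. MX1 missed the adjusted p without the third high-dose or the first vehicle library of HT29, or without the second high-dose or the first vehicle library of SW1783 (DESeq2 adjusted p = 0.0736, 0.0643, 0.0755 and 0.0548). STAT2 in HT29 had 498, 507 and 579.9 normalized counts in vehicle and 446, 323 and 464 at the high dose (-0.35 ± 0.13, DESeq2 adjusted p = 0.098). IRF1 in HT29 had 785, 821 and 766 in vehicle and 752, 927 and 742 with high ACD (0.02 ± 0.10), so that its increase in SW1783 had no counterpart past the threshold. IRF1 and HERC5 passed in SW1783 with ACD and not in HT29 with wortmannin, and IRF9 the reverse. Whether these treatments differ in those genes was not tested.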

How the data were processed

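mRNA of 36 libraries, 3 in each of 12 groups, was sequenced with a directional library kit. Per the submitters' processing notes, FastQC 0.11.9, Trim Galore 0.6.5, STAR 2.7.3a and RSEM 1.3.3 were used with GRCh38, and the strand setting was not given in the sources used here. The authors deposited RSEM expected counts per gene, which divide reads shared by similar genes by a model. For the tests they were rounded to whole numbers (8.84% were not whole). Of 60675 genes 56558 had a symbol, and the others held 0.142% of the counts.

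Groups were compared with the vehicle of their own batch and line with DESeq2 1.42.0 (R 4.3.3), two-sided Wald tests, with Benjamini-Hochberg adjustment over all genes. Fits used the 6 libraries of batch A or the 12 of batch B of a line, and the interactions of line and treatment 12 or 24. A gene was called at an adjusted p under 0.05 and a change over 1.5-fold. Values per library are counts divided by the DESeq2 size factors of the fit. Levels are CPM, counts scaled to the library total. Alternatives were edgeR 4.0.16 (quasi-likelihood), TMM factors, a filter of at least 10 counts in 3 libraries, other sample sets or vehicles, a replicate block and leaving out each library. Up to 16 members a comparison, those with the largest change and a mean of at least 20 normalized counts, were given by library, and at most 4 genes of a pathway list were named. A result of the pathway lists is not reported here. The members and lists were chosen with earlier results of these data known. Positions are those of GENCODE in GRCh38. Total counts of 15941255 to 33866644 set the precision, and the limits they give cover counting error only.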

Additional observations from a re-analysis of the deposited data

Results flagged for a closer look

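The change with wortmannin differed between HT29 and SW1783 for 33 of the 44 members by the interaction test of DESeq2. The largest differences, HT29 minus SW1783 on the log2 scale, were 4.04 for IFI44L, 3.50 for SAMD9L, 3.15 for TRIM22 and 3.15 for XAF1. SAMD9L and TRIM22 had at most 6 normalized counts in HT29 vehicle, so that their size depends on few reads.

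The change at the high ACD dose differed between the lines for 11 members. HT29 minus SW1783 was -2.89 for RSAD2, -1.63 for XAF1, -1.38 for IFIT2 and -1.34 for STAT2, and 1.12 for GBP1 and 0.59 for IFITM2. RSAD2 had at most 10.4 normalized counts in SW1783 vehicle.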

How the results depend on the processing

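Of 1569 values of called genes under the alternatives, 0 turned direction, 1508 kept the call and 61 lost it. Values without an adjusted p were not counted. The 1508 include the setting with adjusted p alone, under which a called gene keeps its call by design. Genes not called in the main test were not followed here, so gained calls do not show in these values. With adjusted p alone, 12 members were called with wortmannin in SW1783 and 1 at the medium ACD dose in HT29. In SW1783 it was 25 at the high dose, 7 at the medium dose and 20 for high against medium dose. The shares of all genes tested were, in this order, 32.5%, 2.18%, 46.4%, 29.5% and 40.8%. With the vehicle of batch A, 1 member was called at the high dose in HT29. High against medium dose in HT29 gave 1 call with edgeR (DDX60), 1 in a fit of the 6 libraries compared (another gene) and 3 with a replicate block. The cause was not tested. Leaving out single libraries gave 33 to 36 members with wortmannin in HT29, 2 in SW1783, 31 to 35 for the interaction with wortmannin, 12 to 14 at the high dose in SW1783, 10 to 13 for its interaction, 7 to 9 for high against medium dose in SW1783 and 1 to 11 in HT29. It gave 0 at the high dose in HT29, 0 to 1 at the medium dose (1 without the third vehicle library) and 0 to 1 at the low dose (1 without the first vehicle library). In SW1783 it gave 0 to 1 at the medium dose, with 1 without the second or the third medium-dose or the first or second vehicle library, and 0 at the low dose. Same-numbered libraries did not deviate together in every pair (r = 0.106, 0.08 and -0.08 for wortmannin in HT29), so the replicate numbers were not taken as pairs. With the replicate block, 29 of the 36 members with an adjusted p were called with wortmannin in HT29. IFIT2 missed the threshold (DESeq2 adjusted p = 0.0675, and 0.0828 for its interaction), and IFITM1, RSAD2, GBP1 and EPSTI1 were given no adjusted p. The block gave 2 calls in SW1783 and 13 at the high dose in SW1783. Few counts limit TRIM22, SAMD9L, HERC5 and RSAD2.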
